A study of Mus musculus with 22 samples.

Results

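The comparison concerned mouse spinal cord above the T6 level, the rostral cord, taken 48 h after a 7.5 min clamp of the aorta, set against rostral cord after sham surgery. Its members were the 4 arrays labelled as 48 h rostral cord (numbers 271 to 274) and the 4 labelled as sham rostral cord (277 to 280), 8 of the 22 arrays of the series. One further rostral array, number 276, was left out because one of its labels gives 48 h and another 24 h. All mice were wild-type C57Bl/6 animals aged 10 to 12 weeks, and the labels name no allele, drug or other treatment beside the clamp or the sham operation. Each array measured total RNA of a whole piece of cord, so a lower signal from fewer cells of a type and one from less RNA per cell cannot be told apart. The caudal cord below T6 (4 arrays at 48 h and 3 after sham surgery) and the rostral cord 24 h after clamping (3 arrays) were used only to show where the rostral 48 h cord differed.

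During aortic surgery, cord supplied from below a clamp loses its blood flow, whereas cord supplied from above it keeps a supply and is reached by hormones and inflammatory proteins in the blood. Glucocorticoids, the adrenal hormones of the stress response, act through a nuclear receptor that switches on genes such as Fkbp5, and interleukin 6 acts through STAT3 to raise genes such as Socs3 and acute phase proteins. Oligodendrocytes make much of the cholesterol of the cord for myelin, and MHC class II molecules, carried by microglia, macrophages and dendritic cells, present peptides to helper T cells.

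Rostral cord at 48 h differed from sham cord in 454 of 18193 genes, or 2.5% (limma, Benjamini-Hochberg adjusted p under 0.05, the rule for every gene called here), 247 higher and 207 lower. These were 1.36% and 1.14% of the genes tested. The change over all genes had a median of -0.02 on the log2 scale, and 88 of the genes called higher and 12 of those called lower differed by at least 2-fold. The 8 arrays were alike in overall signal, with medians of the log2 values between 6.84 and 6.87. Array 274 lay closer to the sham arrays than the other 48 h arrays did. Of the 403 called genes outside the muscle lists, 304 were nearest to the sham mean on array 274, 60 on array 271, 26 on array 272 and 13 on array 273. Without array 274, 846 genes (4.65%) were higher and 919 (5.05%) lower, and all 454 genes kept their call and direction. Because array 274 was nearest to sham for most called genes outside the muscle lists, leaving it out narrows their spread by itself. The larger counts without it, here and in the lists below, therefore give no separate support. Leaving out any other single array lowered the counts to between 40 and 102 higher and between 9 and 57 lower, the lowest without sham array 279. With a score of the heart muscle signal described next as a covariate, 3 genes were higher and 0 lower by limma. That score was itself higher in every clamped cord. With array 276 added as a 48 h array, 56 were higher and 11 lower.

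Heart muscle transcripts had the 10 largest rises and were set aside. Myh6, the atrial and adult mouse ventricular myosin heavy chain, had log2 signals of 9.84, 10.82, 10.40 and 9.47 on 48 h arrays 271 to 274, against 4.40, 4.29, 4.23 and 4.28 on sham arrays 277 to 280. All 4 clamped cords thus stood far above all 4 sham cords. Of 99 measured heart muscle genes, 51 were called higher and 0 lower. An unadjusted p under 0.05 was reached by 73, all of them higher, against 19.8% of all genes in either direction. The median change of this list was 0.42 on array 271, 1.15 on array 272, 1.15 on array 273 and 0.47 on array 274. Nppa, the atrial natriuretic peptide, was lowest on array 271, as the list was, at 7.20, 11.67, 12.00 and 11.04, against 5.18, 5.09, 5.21 and 5.27 in sham cord. Skeletal muscle genes were high on 1 array only: the list's median was 2.98 on array 273 and at most 0.14 on the other 48 h arrays. Liver genes were high on array 272, where albumin (Alb) read 9.63. Its signals on arrays 271, 273 and 274 were 6.59, 5.74 and 5.58, and sham cord ranged between 4.96 and 5.48. The part that RNA of these other tissues played in the changes below was not tested, and 196 higher and 207 lower genes remained outside the heart and skeletal muscle lists.

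Several of the largest rises outside those lists were in genes that heart muscle also expresses strongly. Fabp4, a fatty acid binding protein, read 7.26, 9.81, 8.94 and 7.60 in 48 h cord, against 4.23, 4.06, 4.28 and 4.35 in sham cord (difference 4.17 ± 0.46, SE, on the log2 scale, adjusted p = 0.00238). Cd36, a fatty acid transporter, read 7.41, 8.92, 7.99 and 7.65, against 4.33, 4.51, 4.43 and 4.53 (3.54 ± 0.26, adjusted p = 9.72e-05). Both genes were highest on arrays 272 and 273, where the heart list was also highest. Lack of overlap with the sham arrays was a condition for naming the largest rises, so it adds no support here. Lpl, which frees fatty acids from lipoproteins (2.79 ± 0.17, adjusted p = 2.46e-05), and Dsp, which anchors desmosomes (3.03 ± 0.19, adjusted p = 2.46e-05), were also highest on array 272. Of 20 fatty acid oxidation genes measured, 2 were called higher, Cd36 and Cpt2, the inner carnitine palmitoyltransferase of mitochondria (0.63 ± 0.11, adjusted p = 0.0277). The list's median change was 0.16.

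**Figure D1:**
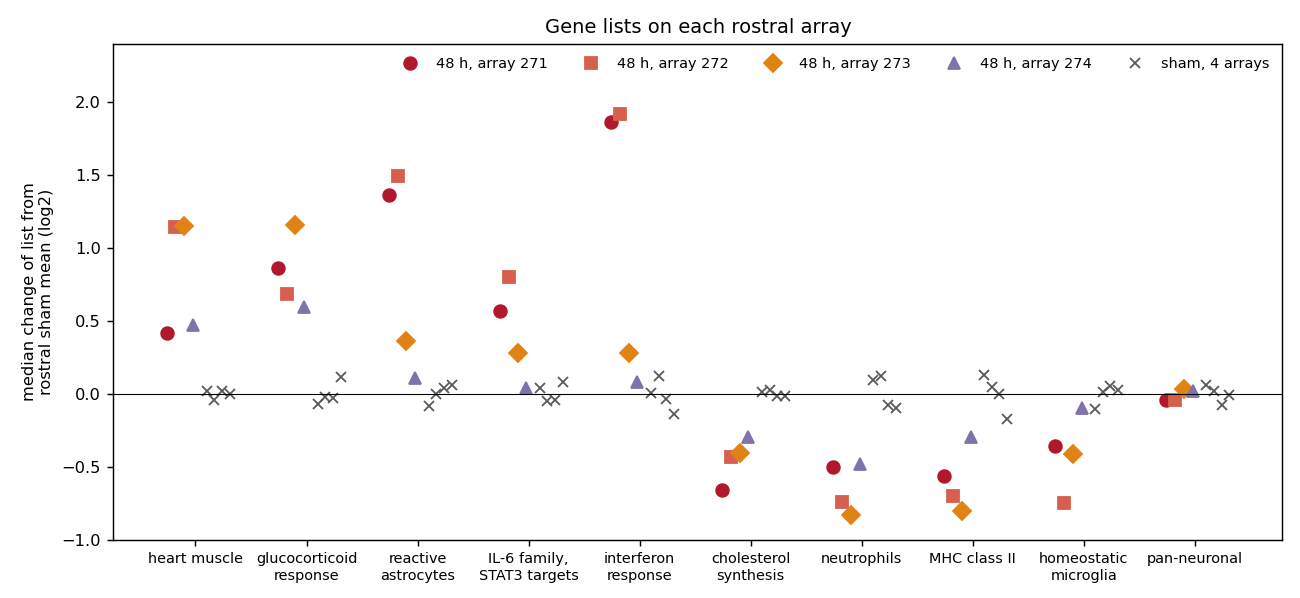
Median log2 change of 10 gene lists from the rostral sham mean, for each of the 4 rostral 48 h arrays (coloured symbols, left) and the 4 rostral sham arrays (grey crosses, right). The heart list and the interferon list put the 48 h arrays in different orders, and the MHC class II list lies below every sham array on all 4 48 h arrays.

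Glucocorticoid-responsive genes rose in rostral cord at 48 h: 11 of the 16 measured members were called higher and 0 lower, with a median change of 0.84. At an unadjusted p under 0.05, which 19.8% of all genes reached in either direction, 15 were higher and 0 lower. On 12 of the 16 the 48 h arrays all lay above the sham arrays, against 4.63% of all genes. This list, like the others, was written with earlier results of these data known, so such counts describe it and test nothing. Fkbp5, a chaperone partner that restrains the glucocorticoid receptor, had log2 signals of 11.18, 11.53, 11.71 and 9.73 in 48 h cord, against 9.16, 9.25, 9.12 and 9.19 in sham cord. Every clamped cord was above every sham cord, array 274 by the least, and the difference was 1.86 ± 0.35 (adjusted p = 0.0317), although 1 of the gene's 3 probe sets changed the other way. Plin4, a coat protein of lipid droplets, read 11.04, 11.31, 11.43 and 8.72, against 7.49, 7.30, 6.84 and 7.37, a difference of 3.38 ± 0.51 (adjusted p = 0.0146). Here 3 clamped cords lay close together and array 274 fell between them and the sham cords.

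The other members called higher covered several functions. Pdk4, which turns off pyruvate dehydrogenase and so spares glucose, changed by 1.84 ± 0.36, and Sult1a1, a phenol sulfotransferase, by 2.05 ± 0.39. Cdkn1a, the cell cycle inhibitor p21, read 11.79, 11.87, 11.94 and 9.96 in 48 h cord, against 9.53, 9.49, 9.63 and 9.63 in sham cord (1.82 ± 0.37, adjusted p = 0.0403). The transcription factors Zbtb16 (1.39 ± 0.30) and Klf9 (0.45 ± 0.09), the arrestin-like Arrdc2 (1.21 ± 0.20), the kinase Sgk1 (0.86 ± 0.18), the EGF receptor inhibitor Errfi1 (0.70 ± 0.16) and the metallothionein Mt2 (0.82 ± 0.14) completed the group. Sgk1 was not lowest on array 274, at 12.69, 12.28, 12.96 and 12.92 in 48 h cord, against 11.53, 11.72, 11.86 and 12.30 in sham cord. Its lowest 48 h value lay just under its highest sham value, so the groups overlapped.

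The remaining members gave values but no call. Tsc22d3, the anti-inflammatory leucine zipper protein GILZ, changed by 0.39 (adjusted p = 0.0991), the clock gene Per1 by 0.51 (adjusted p = 0.0661), Nfkbia by 0.54 and Dusp1 by 0.48. Tat, a liver enzyme, changed by -0.05. The list's median on single arrays was 0.87, 0.69, 1.16 and 0.60 for arrays 271 to 274. On the sham arrays it was -0.07 to 0.12, below each of these. The number of calls depended on which array was left out: without array 274 there were 11, without another 48 h array 2 to 5, without sham array 280 there were 2, and without sham arrays 277, 278 or 279 there were 0. With the heart score as covariate none was called by limma, and the changes of Pdk4, Zbtb16, Arrdc2, Per1 and Tsc22d3 turned negative. Outside the list, other genes among the largest rises were also lowest on array 274. They were Sgk3, a kinase related to Sgk1 (2.12 ± 0.41), Zfand4, a zinc finger protein (1.99 ± 0.37), and Angptl4, a secreted inhibitor of lipoprotein lipase (2.01 ± 0.42, adjusted p = 0.0441).

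The promoter of Sgk1 is shown because it was the 1 of 15 glucocorticoid list members with a promoter in the RefSeq table (250 bases before to 50 after the gene start, build GRCm38.p6) that held the palindromic glucocorticoid response element, spelled here as GNACA, then any 3 bases, then TGTNC, and searched on both strands. Of all 27025 genes in that table, 0.537% held it. The window lies on the plus strand at chr10:21993652-21993764, and capitals mark the match.

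Sgk1: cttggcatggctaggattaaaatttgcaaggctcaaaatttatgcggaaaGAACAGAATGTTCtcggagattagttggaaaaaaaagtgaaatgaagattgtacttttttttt

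**Figure D2:**
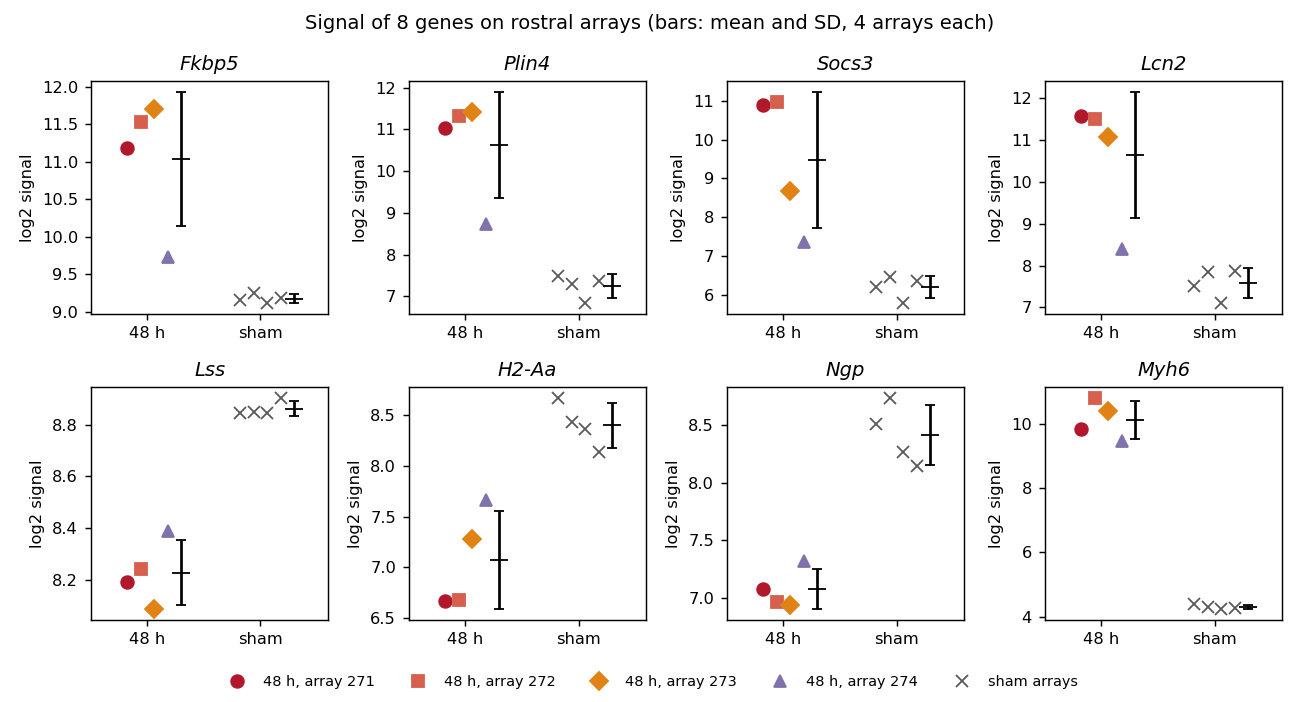
Log2 signal of 8 genes on the 4 rostral 48 h arrays (coloured symbols, left in each panel) and the 4 rostral sham arrays (crosses, right), with the mean and SD of each group as a bar. Array 274 lies nearest the sham arrays for all 8 genes, and the groups do not overlap for any of them.

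Cholesterol synthesis genes fell. Of 14 measured members of the synthesis and uptake list, 8 were called lower and 1 higher, the median change was -0.40, and on 11 the 48 h arrays all lay below the sham arrays, against 7.45% of all genes. Lss, lanosterol synthase, which folds squalene epoxide into a sterol, had log2 signals of 8.19, 8.24, 8.09 and 8.39 in 48 h cord, against 8.85, 8.85, 8.85 and 8.90 in sham cord (-0.63 ± 0.07, adjusted p = 0.00193). Mvd, which makes isopentenyl diphosphate, read 7.81, 7.90, 8.0 and 8.06, against 8.59, 8.67, 8.6 and 8.39 (-0.62 ± 0.08, adjusted p = 0.00561). The groups did not overlap for either gene, and both stayed called whichever single array was left out. Dhcr7, the last enzyme of the pathway, read 8.56, 8.66, 8.72 and 9.10, against 9.52, 9.61, 9.41 and 9.43 (-0.73 ± 0.11, adjusted p = 0.014).

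The other synthesis genes called lower were Fdps (-0.62), Cyp51 (-0.59), Idi1 (-0.47), Sqle (-0.40) and Fdft1 (-0.40), which cover steps from isoprenoid units to lanosterol and its demethylation. Hmgcs1, which makes the substrate of the pathway's rate-limiting enzyme, changed by -0.40 with an adjusted p of 0.0641, and Insig1, the sterol sensor that holds SREBP in place, by -0.30 with an adjusted p of 0.0706. Srebf2, the transcription factor of the pathway, changed by -0.14 (adjusted p = 0.401). Abca1, which exports cholesterol from cells, was the member called higher (0.33 ± 0.07, adjusted p = 0.0481), so the exporter and the synthetic enzymes moved in opposite directions. The number called lower was 11 without array 274, 4 to 6 without another 48 h array or sham array 280, and 2 without sham array 277, 278 or 279. Abca1 stayed called without array 274, and 0 members were called higher without any other single array. By array the list's median was -0.66, -0.43, -0.40 and -0.30 for arrays 271 to 274.

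Chains of the MHC class II molecule fell. Of 7 measured members, 4 were called lower and 0 higher, with a median change of -0.63. At an unadjusted p under 0.05, which 19.8% of all genes reached in either direction, 5 were lower and 0 higher. H2-Aa, an alpha chain of the class II molecule, had log2 signals of 6.67, 6.68, 7.27 and 7.66 in 48 h cord, against 8.67, 8.43, 8.37 and 8.14 in sham cord, a change of -1.33 ± 0.21 (adjusted p = 0.0179). H2-Eb1, a beta chain, read 6.93, 7.06, 7.02 and 7.34, against 7.95, 7.87, 7.76 and 7.69 (-0.73 ± 0.09, adjusted p = 0.00709). Cd74, the invariant chain that guides class II molecules through the cell, read 7.56, 7.59, 7.56 and 7.80, against 8.51, 8.43, 8.26 and 8.27 (-0.74 ± 0.08, adjusted p = 0.00218). For all 3 genes each clamped cord lay below each sham cord, and H2-Eb1 and Cd74 stayed called whichever array was left out.

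H2-Ab1, the partner chain of H2-Aa, changed by -0.63 ± 0.14 (adjusted p = 0.0463). Ciita, the coactivator that controls class II transcription, had low signals of 5.24 to 5.39 in 48 h cord and 5.10 to 5.60 in sham cord and changed by -0.03, and H2-DMa and H2-Oa, which edit peptide loading, changed by -0.21 and -0.12. The count called lower was 2 without sham array 277, 278 or 279 and 3 or 4 without any other array. With the heart score as covariate the change of H2-Ab1 turned positive (0.20). Of 11 class I processing genes measured, 0 were called by limma in either direction, and the median was 0.17. At an unadjusted p under 0.05, 1 was higher and 0 lower, against 19.8% of all genes in either direction.

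Class II promoters share conserved boxes, among them the Y box, and 2 of the genes that fell are shown with it. The letters CTGATTGG, searched on both strands of the same RefSeq promoter windows, were present for 3 of the 4 class II members with a promoter in the table and for 4.70% of all 27025 genes. The third, H2-Oa, was not called. H2-Aa lies on the minus strand at chr17:34287817-34287924 and H2-Eb1 on the plus strand at chr17:34305755-34305862, both in GRCm38.p6, with the Y box in capitals starting 51 bases and 62 bases before the gene start.

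H2-Aa: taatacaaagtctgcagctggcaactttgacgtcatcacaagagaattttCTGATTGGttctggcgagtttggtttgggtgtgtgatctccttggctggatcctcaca

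H2-Eb1: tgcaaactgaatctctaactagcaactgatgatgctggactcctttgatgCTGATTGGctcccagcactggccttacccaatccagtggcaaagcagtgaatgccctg

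Neutrophil granule genes also fell in rostral cord. Of 10 measured neutrophil genes, 5 were called lower and 0 higher, with a median of -0.63. Ngp, a granule protein of developing neutrophils, had log2 signals of 7.08, 6.97, 6.94 and 7.33 in 48 h cord, against 8.51, 8.74, 8.27 and 8.14 in sham cord, a change of -1.33 ± 0.13 (adjusted p = 0.000953) that stayed called whichever array was left out. S100a8, a subunit of calprotectin, read 8.36, 7.83, 8.06 and 8.53, against 9.68, 10.01, 9.55 and 9.02 (-1.37 ± 0.20, adjusted p = 0.0146). The groups did not overlap for either gene. S100a9, its partner (-1.32 ± 0.20), Camp, a cathelicidin (-1.40 ± 0.21), and Ltf, lactoferrin (-0.92 ± 0.14), were lower in the same way.

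Mpo (-0.33, adjusted p = 0.0627) and Mmp9 (-0.20) were not called, and Elane (-0.04), Cxcr2 (0.11) and Mmp8 (0.20) lay near sham cord. The list also varied where no clamp had been placed: its median change from the sham mean of the same region was 0.16, -1.05 and 0.86 on caudal sham arrays 278, 279 and 280, against -0.10 to 0.13 on the rostral sham arrays. On the rostral 24 h arrays it was -0.47, -0.46 and 0.18. Without sham arrays 277, 278 or 279 the number called lower was 1, 2 and 2, and without any other single array it was 5 or 6. Outside the list, Serpinb1a, an inhibitor of neutrophil elastase, changed by -1.45 ± 0.30 (adjusted p = 0.0432). With the heart score as covariate the change of Ltf turned positive (0.11).

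Genes of the interleukin 6 and STAT3 pathway were higher on some clamped cords than on others. Of 17 measured members, 3 were called higher and 0 lower, with a median of 0.45: Socs3, Cebpd and Osmr. Socs3, the feedback inhibitor of the pathway, had log2 signals of 10.90, 10.96, 8.66 and 7.37 in 48 h cord, against 6.20, 6.45, 5.78 and 6.35 in sham cord (3.28 ± 0.69, adjusted p = 0.0441). Cebpd, a transcription factor of the acute phase, read 10.86, 10.85, 9.99 and 9.08, against 7.99, 8.30, 8.18 and 8.45 (1.96 ± 0.34, adjusted p = 0.0256). In both genes arrays 271 and 272 were highest and array 274 lowest, and all 4 clamped cords were above the sham cords. Osmr, the oncostatin M receptor, changed by 1.52 ± 0.34 (adjusted p = 0.0498). Without array 274 there were 9 members called higher, without array 273 there was 1, and without any other single array 0.

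The ligand Il6 was not called (1.37 ± 0.32, adjusted p = 0.0532). Its signals were 5.64, 5.67, 5.66 and 4.06 in 48 h cord, against 3.97, 3.78, 4.06 and 3.75 in sham cord, so 3 clamped cords agreed closely and array 274 lay at the top of the sham range. Without array 274 the difference was 1.77. Leaving out the array that disagreed narrows the spread by itself, so that fit gives no separate support for a rise. The shared receptor Il6st changed by -0.02, Lifr by 0.13 and Stat3 itself by 0.51 (adjusted p = 0.143).

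Reactive astrocyte genes followed the same order of arrays. Of 15 measured, 3 were called higher and 0 lower, with a median of 0.82. Without array 274 there were 9 called higher, and without any other single array 0. The called genes were Lcn2, Hspb1 and Osmr. Lcn2, a secreted siderophore-binding protein of reactive astrocytes and the acute phase, read 11.58, 11.51, 11.08 and 8.41 in 48 h cord, against 7.52, 7.85, 7.11 and 7.88 in sham cord (3.06 ± 0.60, adjusted p = 0.036). Hspb1, a small heat shock protein, read 13.88, 13.74, 12.80 and 11.74, against 11.05, 11.29, 11.46 and 11.35 (1.75 ± 0.39, adjusted p = 0.0498). Serpina3n, a secreted protease inhibitor of reactive astrocytes, read 12.50, 12.36, 10.34 and 9.36, against 8.84, 9.20, 9.05 and 9.04, and was not called (2.11 ± 0.60, adjusted p = 0.0897).

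Gfap, the intermediate filament of astrocytes, was 12.72, 12.57, 12.22 and 12.29 in 48 h cord, against 12.29, 12.51, 12.35 and 12.47 in sham cord, with a change of 0.04 (adjusted p = 0.873) and overlapping groups. Acute phase genes had a median change of 1.13 over 15 measured members, of which 1 was called higher, Lcn2, and 1 lower, the iron exporter Slc40a1 (-0.55 ± 0.11, adjusted p = 0.033). Saa3, a serum amyloid A made in tissue, read 11.86, 11.41, 8.25 and 7.34, against 7.33, 7.26, 7.21 and 7.64 (adjusted p = 0.172). The liver transcripts Hp and Hpx of this list were highest on array 272, the array with the albumin signal. Without array 274, 9 acute phase genes were called higher and 1 lower, and without any other single array 0 were called higher and 0 or 1 lower. The single-array medians of the reactive astrocyte list were 1.36, 1.5, 0.37 and 0.11 for arrays 271 to 274, so arrays 271 and 272 stood furthest from the sham arrays.

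Interferon-responsive genes showed the same split between arrays. Of 18 measured members, 0 were called by limma, although the median change was 1.06. At an unadjusted p under 0.05, which 19.8% of all genes reached in either direction, 15 were higher and 0 lower. Ifit1, an interferon-induced RNA-binding protein, read 10.33, 10.25, 7.83 and 7.65 in 48 h cord, against 7.52, 7.59, 7.37 and 7.03 in sham cord (adjusted p = 0.154). Usp18, which limits interferon signalling, read 9.44, 9.49, 7.53 and 6.99, against 6.75, 6.90, 6.49 and 6.34 (1.74 ± 0.51, adjusted p = 0.0957). Both were high on arrays 271 and 272 and within 1 log2 unit of the highest sham array on arrays 273 and 274. The list's median was 1.86, 1.92, 0.28 and 0.08 on arrays 271 to 274, and without array 274 there were 12 members called higher, against 0 without any other single array.

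Chemokines and cytokines rose in few members. Of 22 chemokine genes measured, 2 were called higher and 0 lower. Ccl12, a monocyte attractant, read 9.58, 8.65, 7.37 and 8.06 in 48 h cord, against 6.80, 6.72, 6.42 and 5.76 in sham cord (1.99 ± 0.41, adjusted p = 0.0403), with no overlap. Ccl9 changed by 0.94 ± 0.20 (adjusted p = 0.0419). Ccl2, the main monocyte attractant, read 8.35, 8.33, 6.28 and 6.21, against 6.14, 5.98, 5.72 and 5.88 (1.36 ± 0.47, adjusted p = 0.149), and Cxcl10 changed by 1.81 ± 0.55 (adjusted p = 0.105).

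Of 18 cytokine and NF-kappaB genes, 3 were called higher and 0 lower: the receptor Il1r1 (0.71 ± 0.15), the nuclear regulator Nfkbiz (0.75 ± 0.13) and the apoptosis inhibitor Birc3 (0.53 ± 0.11). Without array 274 these counts were 9 chemokines and 10 cytokine genes, and without any other single array at most 1 and 0. Of 15 monocyte and macrophage genes, 2 were called higher, Cd14 and Cd163, and 1 lower, Lyz2. Cd14, a lipopolysaccharide co-receptor, read 9.55, 9.90, 9.48 and 8.22, against 7.52, 7.76, 7.62 and 7.77 (1.62 ± 0.29, adjusted p = 0.0292). Cd163, a haemoglobin scavenger receptor of macrophages, changed by 0.90 ± 0.19 (adjusted p = 0.0465), and Lyz2, a lysozyme of macrophages and neutrophils, by -0.53 (adjusted p = 0.0277). Without array 274 the list had 4 called higher, and without any other single array 0. Outside the list, Ms4a6d, a membrane protein of macrophages, was among the largest rises (2.09 ± 0.43, adjusted p = 0.0419).

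Immediate early genes were higher in part. Of 18 measured, 5 were called higher, Fos, Fosl2, Fosb, Egr1 and Ier2, and 1 lower, Arc. Fos, an AP-1 subunit induced within minutes of a stimulus, read 11.11, 11.34, 10.36 and 10.58 in 48 h cord, against 9.53, 9.53, 9.65 and 9.48 in sham cord (1.30 ± 0.18, adjusted p = 0.0118). Fosl2 read 8.68, 9.09, 9.25 and 8.29, against 7.61, 7.59, 7.36 and 7.77 (1.24 ± 0.18, adjusted p = 0.0146), although its second probe set changed the other way. Arc, a synaptic gene induced by neuronal activity, read 7.07, 7.11, 6.49 and 7.35, against 7.74, 7.70, 7.80 and 7.64 (-0.71 ± 0.15, adjusted p = 0.0432). No array crossed between groups for these 3 genes, and Fos and Arc moved in opposite directions. The other activity genes Npas4 and Nr4a1 changed by -0.04 and 0.28 without a call. When any one array other than 274 was left out, 0 to 3 members were called higher, the 0 without sham array 279, and without array 274 there were 8.

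Stress genes outside inflammation gave few calls. Of 13 p53 targets, 4 were called higher and 0 lower: Cdkn1a, Ccng1 (0.73 ± 0.13), Gadd45a (0.71 ± 0.14) and Btg2 (0.71 ± 0.13). Without array 274 there were 5 called, without array 271 or 273 there was 1, and without any other single array 0. Mdm2, the p53 ubiquitin ligase (0.05), and Bbc3, which promotes apoptosis (0.12), were not called. Of 13 NRF2 targets and metallothioneins, 2 were called higher, Mt1 (0.59 ± 0.12) and Mt2, and the haem-degrading enzyme Hmox1 was not (1.06 ± 0.38, adjusted p = 0.155). Its signals were 8.36, 9.0, 7.20 and 6.96 in 48 h cord, against 6.84, 6.90, 6.77 and 6.75 in sham cord. Of 16 unfolded protein response genes 0 were called by limma and 0 had an unadjusted p under 0.05, against 19.8% of all genes in either direction.

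**Figure D3:**
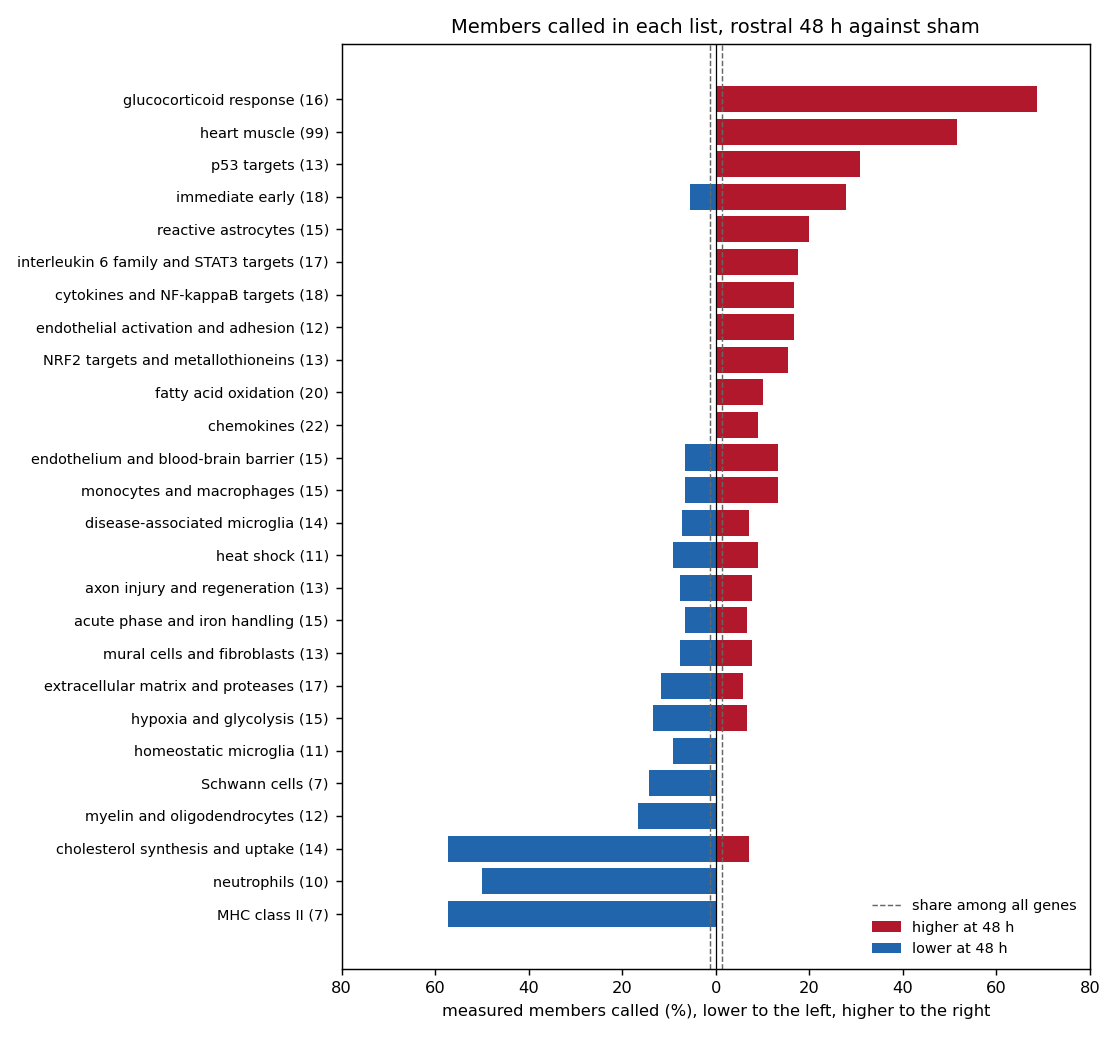
Share of the measured members of each gene list (number in parentheses) called higher (red, right) or lower (blue, left) in rostral cord at 48 h against sham, for lists with at least 1 called member. Dashed lines mark the share among all genes, 1.36% higher and 1.14% lower.

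Microglial and myelin genes had few calls. Of 11 homeostatic microglia genes, 1 was called lower and 0 higher, with a median of -0.33. At an unadjusted p under 0.05, which 19.8% of all genes reached in either direction, 8 were lower and 0 higher. Gpr34, a lysophosphatidylserine receptor of microglia, read 4.61, 4.24, 4.86 and 5.93 in 48 h cord, against 6.22, 6.24, 6.69 and 6.14 in sham cord (-1.41 ± 0.30, adjusted p = 0.0441). P2ry12, the purine receptor that guides microglial processes, read 7.10, 7.21, 8.06 and 8.43, against 8.58, 8.85, 9.0 and 8.84, and just missed the threshold (-1.11 ± 0.26, adjusted p = 0.0556). Array 274 was again nearest to sham. Without it 5 members were called lower, and without any other single array 0. Tmem119 (-0.28) and Csf1r (-0.27) were not called. Of 14 measured disease-associated microglia genes, 1 was called higher, Lpl, and 1 lower, Igf1. The list's median change was 0.08, and 11 of the 14 changed upward. Igf1, a growth factor of microglia and vessels, changed by -1.04 ± 0.19 (adjusted p = 0.0313).

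Of 12 myelin and oligodendrocyte genes, 2 were called lower and 0 higher. Opalin, a membrane protein of mature oligodendrocytes, read 8.71, 8.71, 9.38 and 9.81, against 10.50, 10.61, 10.58 and 10.35 (-1.36 ± 0.22, adjusted p = 0.0183). Aspa, which breaks down N-acetylaspartate for myelin lipids, changed by -0.88 ± 0.20 (adjusted p = 0.0498). Pllp, a myelin membrane protein named among the largest falls, changed by -0.99 ± 0.19 (adjusted p = 0.0317). The myelin list's median was -0.20, and 0 members were called without any one sham array, 1 without array 271, 272 or 273 and 5 without array 274.

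Vascular genes moved in both directions. Of 15 endothelial and blood-brain barrier genes, Mfsd2a, a lipid transporter that keeps the barrier closed, read 10.36, 10.42, 10.84 and 9.82 in 48 h cord, against 9.53, 9.52, 9.54 and 9.52 in sham cord (0.83 ± 0.17, adjusted p = 0.0385). Pecam1 was higher by 0.67 ± 0.15 (adjusted p = 0.0498), and Itm2a changed by -0.84 ± 0.18 (adjusted p = 0.0458). Without array 274 the endothelial list had 3 called higher and 3 lower, and without any other single array 0 in either direction. Among 12 endothelial activation genes, 2 were called higher, Lrg1 (1.32 ± 0.29) and Ch25h, a cholesterol hydroxylase (1.35 ± 0.29), with 6 called without array 274 and 0 without any other single array. Acta2, smooth muscle actin of vessel walls, read 9.53, 9.62, 9.65 and 9.50, against 9.11, 9.15, 8.98 and 9.10 (0.49 ± 0.06, adjusted p = 0.00578), a small change with narrow groups that stayed called whichever array was left out. The 15 largest falls were chosen among called genes whose arrays did not overlap between groups. They included Slc47a1, an organic cation exporter (-1.24 ± 0.22), Slc26a7, an anion exchanger (-0.95 ± 0.19), and Ecrg4, a secreted peptide precursor (-0.94 ± 0.13).

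Matrix, hypoxia and repair lists gave scattered calls. Of 17 extracellular matrix and protease genes, 1 was called higher, the protease Adamts1 (1.11), and 2 lower, Mmp2 (-0.41) and its activator Mmp14 (-0.49). The fibrillar collagen gene Col1a1 was the member of 13 mural cell and fibroblast genes called lower (-0.68). Of 15 hypoxia and glycolysis genes, 1 was called higher, the hexokinase Hk2 (0.62), and 2 lower, the phosphofructokinase Pfkl (-0.50) and Ankrd37 (-0.58), and the list's median was -0.05. Of 11 heat shock genes, Hspb1 was called higher and Dnajb1, a co-chaperone, lower (-0.45). Among 13 axon injury and regeneration genes, Gadd45a was called higher and the tubulin regulator Stmn4 lower (-0.49). By limma 0 of 19 cell cycle genes and 0 of 15 clock genes were called. At an unadjusted p under 0.05, 4 cell cycle genes were lower and 0 higher, and 2 clock genes were lower and 1 higher. Both counts were near the 19.8% of all genes that reached this threshold in either direction.

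Neuronal genes gave no call. The 7 neuronal lists cover shared neuronal genes, 3 neuron classes, glutamate receptors, channels and transmitters. They held 72 measured genes, of which 0 were called by limma, against 2.5% of all genes. Of the 72, 13 had an unadjusted p under 0.05, near the 19.8% of all genes that did. These counts alone thus do not set neuronal genes apart from genes at large. The pan-neuronal list had a median of -0.02. Its 95% confidence intervals lay between -0.46 and 0.24, so for its 13 genes a 2-fold change in either direction fell outside the interval. Nefl, the light neurofilament, read 13.94, 13.97, 13.97 and 14.00 in 48 h cord, against 13.98, 13.95, 13.95 and 13.97 in sham cord, and Rbfox3, the nuclear marker NeuN, read 12.43, 12.32, 12.46 and 12.45, against 12.43, 12.37, 12.32 and 12.60. The groups overlapped for both genes. Chodl, a marker of fast motor neurons, had a larger change, -0.71 ± 0.19, and was not called (adjusted p = 0.0775).

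Of the 454 genes, 44 stayed called whichever single array was left out, 28 of them in the muscle lists. The 6 lower ones were Ngp, Cd74, H2-Eb1, Lss, Mvd and Pdgfrl, and the 10 higher ones outside the muscle lists were Lpl, Cd36, Fabp4, Dsp, Tpm1, Acta2, Ccn1, Zfp36, Csrnp1 and Il12rb1. Those not yet described were singled out after their values were seen. Ccn1, a secreted matrix protein induced early after stimulation, changed by 1.89 ± 0.20 (adjusted p = 0.00193), and Zfp36, which speeds decay of cytokine messenger RNA, by 1.55 ± 0.18 (adjusted p = 0.00401). Csrnp1, a nuclear protein, changed by 0.83 ± 0.10 and Pdgfrl, a platelet-derived growth factor receptor-like protein, by -0.54 ± 0.07. Tpm1 changed by 1.94 ± 0.25 and took the other sign with the heart score as covariate. Lpl, Cd36, Fabp4 and Dsp were described above among genes that heart muscle also expresses strongly. Whether RNA from heart muscle had a part in the rise of these genes was not tested. The heart score was higher in every clamped cord, so the fit with it cannot tell the heart signal from the clamp.

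The change in rostral cord was compared with that in caudal cord, with the sham arrays of each region as its own baseline. Some caudal arrays differed in quality from the 8 rostral arrays. The SD of the log2 values was 2.05 on caudal 48 h array 271, against 2.22 to 2.25 on those 8. The Gapdh control's 5' minus 3' signal was -1.05 on caudal 48 h array 274 and -0.68 on caudal sham array 280, against -0.11 to 0.04. The effect of this on the calls was not tested. The difference between the changes, caudal minus rostral, was called for 69 genes (0.379% of those tested), 52 of them positive (0.286%) and 17 negative (0.0934%), and 13 of the negative ones were in the heart list. Without any one array the count lay between 26 and 336, the lowest without caudal sham array 278 and the highest without caudal 48 h array 274. Inflammatory genes changed less in rostral cord: among chemokines 5 of 22 and among cytokine and NF-kappaB genes 5 of 18 had a called positive difference, with 0 negative in either. Il6 changed by 1.37 in rostral and 7.14 in caudal cord (difference 5.77 ± 0.74, adjusted p = 0.0029), Ccl3, a macrophage chemokine, by 1.64 and 6.72 (5.08 ± 0.79, adjusted p = 0.011), and Cxcl10, an interferon-induced chemokine, by 1.81 and 6.50 (4.69 ± 0.79, adjusted p = 0.017). Cxcl2, a neutrophil attractant, changed by 0.48 and 5.47 (4.99 ± 0.95), and Acod1, which makes itaconate in macrophages, by 0.28 and 4.08 (3.81 ± 0.74).

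Glucocorticoid genes gave no call between regions. Of the 16 members, 0 were called by limma in the test of the difference and 0 had an unadjusted p under 0.05, which 8.19% of all genes reached. Fkbp5 changed by 1.86 in rostral and 1.6 in caudal cord (difference -0.26 ± 0.60, 95% interval -1.54 to 1.01) and Cdkn1a by 1.82 and 1.85 (0.04 ± 0.61, 95% interval -1.27 to 1.34), so differences of 1 log2 unit lay inside these intervals. Class II genes had 0 of 7 called and 1 at an unadjusted p under 0.05, with median changes of -0.63 in rostral and -0.52 in caudal cord. For cholesterol synthesis 0 of 14 were called, 5 had a positive difference at an unadjusted p under 0.05, and the median change was -0.40 in rostral and -0.11 in caudal cord.

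Outside the muscle lists 4 genes were called with a change that was higher in rostral than in caudal cord. Cd36 changed by 3.54 in rostral and 1.34 in caudal cord (difference -2.20 ± 0.37, adjusted p = 0.017). Aqp1, a water channel of red cells, endothelium and choroid plexus, changed by 1.5 and -0.84 (-2.33 ± 0.40, adjusted p = 0.017), and Mlf1 by 0.79 and -0.25 (-1.04 ± 0.18, adjusted p = 0.017). Nexn, an actin-binding protein also abundant in heart, changed by 0.40 and -0.56 (-0.95 ± 0.18, adjusted p = 0.039). The heart list itself had a median change of 0.87 in rostral and 0.28 in caudal cord.

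**Figure D4:**
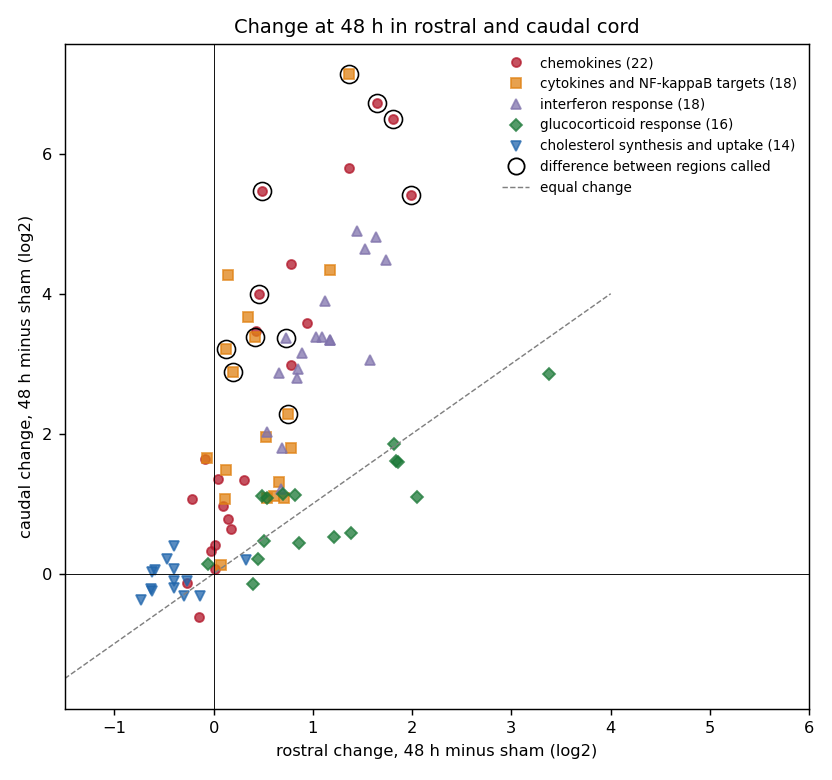
Log2 change at 48 h against sham in rostral cord (horizontal axis) and caudal cord (vertical axis) for the members of 5 gene lists. Circles mark genes whose difference between regions was called and the dashed line marks equal change. The circled chemokine, cytokine and interferon genes lie above the line.

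At 24 h the rostral cord was set against the same sham arrays. The 24 h array numbered 283 carried Hoxc10, a lumbar position gene, at 10.14, against 5.32 to 6.22 on the 8 arrays described here, and so went against its rostral label (the caudal sham arrays averaged 10.29 ± 0.17, SD, n = 3). The values of arrays 281, 282 and 283 are therefore given singly. The median change of the glucocorticoid list was 0.06, -0.08 and -0.06, and that of cholesterol synthesis was -0.10, -0.06 and -0.05. For MHC class II it was -0.01, -0.27 and 0.19, and for interferon genes 0.03, 0.07 and 0.73, so array 283 alone was high for the interferon list. Fkbp5 read 9.26, 9.39 and 9.21 and Plin4 7.52, 7.64 and 7.36 at 24 h, below every 48 h array. Ngp read 7.44, 7.23 and 8.66 and S100a8 8.27, 8.30 and 10.18, below every sham array on arrays 281 and 282 but not on array 283. Since both times share their sham arrays, the values stand side by side and were not tested against each other.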

How the data were processed

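Total RNA of C57Bl/6 spinal cord was hybridised to Affymetrix Mouse430_2 arrays. Per the submitters' processing notes, the authors deposited log2 RMA values; the RMA version is not given in the sources used here, and the values were used as deposited. Of 45101 probe sets, 64 were controls, 34945 had 1 gene symbol, 932 several and 9160 none listed; the brightest probe set (highest mean) of each gene gave 18193 genes. The labels do not say that arrays are separate animals, so the p-values reflect only how much these samples varied. The 8 rostral arrays were fitted with limma 3.58.1 (R 4.3.3; lmFit, eBayes, two-sided, Benjamini-Hochberg, adjusted p under 0.05; 10.1 degrees of freedom with the prior). The difference between regions used 15 arrays in 4 groups. No pseudocount or low-signal filter was applied, and the number of arrays limits the precision. A fold is 2 to the log2 difference. Errors are standard errors. The scripts were tested on simulated data.

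The members and gene lists were chosen with earlier results of these data known; no list was tested. Named outside the muscle lists were the 15 largest rises and 15 largest falls among called genes without overlap, up to 4 members of each list by smallest p, 6 heart genes, 6 set genes (Il6, Ccl2, Socs3, Lcn2, Gfap and Hmox1), and the 5 largest region differences in each direction; clone and predicted names were not named. Lists overlap: Lcn2, Osmr, Cdkn1a, Mt2, Il6 and others stand in several. Promoters came from RefSeq (GRCm38.p6). Alternatives were each array left out, other summaries of probe sets, a brightness filter, repeated quantile normalisation, centring, trend with robust, array weights, other sets of arrays, array 276 as 48 h, muscle genes left out, a heart score as covariate and the array number as a block.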

Additional observations from a re-analysis of the deposited data

Results flagged for a closer look

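Array 274 was marked as apart from the other 3 rostral 48 h arrays in 5 of 80 groups of 4 arrays examined. Chance marks about 1 group in 20 when any array of the group may be the one marked, and the count of groups was near that share. All 5 marks fell on array 274, however, and that share does not describe marks on 1 given array. Whether chance alone would place them there was not tested. In the marked groups the gap to the nearest array exceeded Dixon's 95% limit as a share of the group's range. Its log2 signal was 8.72 for Plin4, 8.41 for Lcn2, 9.45 for Sgk3 and 4.06 for Il6, below the other 48 h arrays in each case, and 6.27 for Slc26a7, above them. All 5 values lay on the side of the sham arrays.

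The change at 48 h differed between regions, by the test of caudal minus rostral change. The difference was positive for Il6 (5.77), Ccl3 (5.08), Cxcl2 (4.99), Cxcl10 (4.69), Acod1 (3.81) and Ccl12 (3.41). It was negative for the heart genes Actc1 (-4.13), Myh6 (-3.76) and Tnnt2 (-3.45), and for Aqp1 (-2.33), Cd36 (-2.20), Mlf1 (-1.04) and Nexn (-0.95). Array 276, which entered only the alternative that added it as a 48 h array, had a median of 0.59 above the rostral sham mean for the heart list.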

How the results depend on the processing

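The number of genes called against sham was 454 and moved with the choice of arrays and of variance model. It was 112 with all 21 grouped arrays, 90 with 19 arrays, 68 with 15 arrays in 4 groups without a block, 779 with 11 rostral arrays, 67 with array 276 as a 48 h array, 706 over every probe set, 1224 with array weights, 100 at 2-fold or more and 3 with the heart score as covariate. Leaving out single arrays gave 49 to 1765. The number called between regions was 69, and was 16 among brighter genes, 1179 with array weights, 5 with the heart score, 104 with array 276, and 26 to 336 without single arrays. The cause of these shifts was not tested. The other settings kept both counts within 1.5 times. Array numbers are shared between regions, and the correlation of same-numbered deviations was 0.0863 to 0.534, against -0.469 to 0.232 for unlike numbers. Each rostral array correlated best with its own number, a hint of pairing from the data. As 1 of 7 values was under 0.1 and no label states shared animals, the tests were kept without the block. With the number as a random replicate block 75 genes were called against sham and 137 between regions, and as a fixed replicate block 139 between regions. Over the settings other than the heart score, the list median ran from 0.60 to 0.93 for glucocorticoid genes, -0.48 to -0.34 for cholesterol synthesis, -0.74 to -0.41 for MHC class II and -1.33 to -0.52 for neutrophils.

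With the heart score as covariate the change took the other sign for called genes as follows: Aqp1 -0.87, Arc 0.17, Arrdc2 -0.041, Btg2 -0.11, Fosl2 -0.037, H2-Ab1 0.20, Ltf 0.11, Mfsd2a -0.17, Nppa -2.11, Pdk4 -0.18, Tpm1 -0.47, Zbtb16 -0.86 and Zfand4 -0.069. It also did so for genes that were not called: Alb -0.12, Ciita 0.0093, Csf1r 0.10, Cxcl2 -0.37, Elane 0.22, H2-DMa 0.17, Hp -1.52, Il6st 0.12, Lifr -0.25, Mdm2 -0.17, Mpo 0.024, Nefl -0.022, Nexn -0.43, Nr4a1 -0.83, Per1 -0.19, Rbfox3 0.031, Tat 0.037, Tmem119 0.085 and Tsc22d3 -0.49. Other sign changes were in uncalled genes near 0: Gfap -0.062, Mdm2 -0.0076 and Nefl -0.028 with array 276 as a 48 h array; Nefl -0.036 after repeated quantile normalisation; Nefl -0.0049 after centring. Leaving out single arrays gave ranges that crossed 0 for Ciita -0.12 to 0.046, Elane -0.12 to 0.026, Gfap -0.047 to 0.12, Il6st -0.088 to 0.050, Nefl -0.0058 to 0.016, Npas4 -0.14 to 0.052 and Rbfox3 -0.053 to 0.042.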

Other observations

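The rostral array numbered 276, with conflicting time labels, carried heart muscle transcripts at levels like the 48 h arrays, with a log2 signal of 9.82 for Myh6. Fabp4 read 7.63, Cd36 7.55, Lpl 10.84 and Dsp 8.08 on it, each above every rostral sham array. Its other signals lay elsewhere: Fkbp5 read 9.26, Plin4 7.61, Cdkn1a 9.61 and Socs3 6.56, each below every rostral 48 h array. S100a8 read 9.65 and H2-Aa 9.36, each above every rostral 48 h array.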
